A study of Homo sapiens with 4 samples.

Results

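The collagen, laminin and integrin genes were followed here as one module of the extracellular matrix and its receptors. Members were the genes whose whole symbol is COL, a number, A and a number, or LAMA, LAMB or LAMC and a number, or ITGA or ITGB followed by a number or by one of the letters D, E, L, M, V and X. By this rule 81 genes were members, 44 collagens, 12 laminins and 25 integrins, of 19483 genes that could be named on the array. They were measured by 106 probes, 56, 21 and 29 for the 3 families, of 34127 non-control probes in all. The rule used names only and no measured value.

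Gene expression was measured on 4 arrays, 1 per condition, in TR9-MeTA14 and TR15-MeTA5 cells. Both lines derive from LNCaP, a human prostate cancer cell line with luminal features. All 4 conditions carry the Tet repressor and a stably integrated, tetracycline-regulated construct that encodes NFκB (AD)-MBD, the activation domain of NFκB joined to a methyl-CpG-binding domain, so that the fusion protein brings an activator to methylated DNA. Within each line, cells without tetracycline (-Tet) were set against cells given tetracycline for 4 days (+Tet). Each line is 1 stably transfected line, and arrays of tetracycline-treated cells without the construct were not analysed here, so an effect of the drug itself and one of the fusion protein cannot be told apart.

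Collagens are trimers of alpha chains that form fibrils, networks or membrane-anchored rods outside the cell, and many need chains of several genes to assemble. Laminins are heterotrimers of 1 alpha, 1 beta and 1 gamma chain that build basement membranes together with collagen IV. Integrins are receptors of 1 alpha and 1 beta subunit that bind these proteins and connect them to the cytoskeleton, so the level of a receptor or trimer depends on all of its chains. In the prostate, laminins and collagen IV surround the glands, and the integrin of ITGA6 and ITGB4 is the classical receptor of basal cells for laminin.

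Because the methyl-CpG-binding domain recognises the letters CG when they are methylated, the 250 bases before the annotated start are shown for members that turned out to differ in response, with each CG in capitals. Methylation was not measured on these arrays, so the letters show where CG lies and not whether it is methylated. Sequences are those of RefSeq on GRCh38.p14 and read 5′ to 3′ on the strand of the gene. CG reads the same on both strands. The shown set holds 3 members with higher signals in both lines, COL23A1, COL6A2 and LAMB1, as follows.
COL23A1 (chr5:178590394-178590643, - strand, 25 CG): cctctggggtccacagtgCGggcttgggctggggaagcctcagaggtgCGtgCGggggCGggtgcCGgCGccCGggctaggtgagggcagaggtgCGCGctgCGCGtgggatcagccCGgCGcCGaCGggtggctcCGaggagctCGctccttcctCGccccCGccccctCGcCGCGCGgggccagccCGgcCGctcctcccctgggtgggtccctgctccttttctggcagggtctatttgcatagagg
COL6A2 (chr21:46097862-46098111, + strand, 28 CG): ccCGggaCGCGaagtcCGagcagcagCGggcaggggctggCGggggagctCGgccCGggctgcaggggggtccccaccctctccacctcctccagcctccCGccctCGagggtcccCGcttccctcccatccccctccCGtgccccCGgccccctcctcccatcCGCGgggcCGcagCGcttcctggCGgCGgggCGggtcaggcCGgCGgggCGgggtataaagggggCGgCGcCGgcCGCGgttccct
LAMB1 (chr7:108003162-108003411, - strand, 28 CG): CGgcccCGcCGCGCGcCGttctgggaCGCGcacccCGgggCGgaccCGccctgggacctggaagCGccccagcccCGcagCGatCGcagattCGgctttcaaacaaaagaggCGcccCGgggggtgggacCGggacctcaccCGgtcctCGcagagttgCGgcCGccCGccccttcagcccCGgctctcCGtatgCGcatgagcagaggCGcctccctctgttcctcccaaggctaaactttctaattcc

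COL4A1 and COL4A2 start 127 bases apart on opposite strands, and their windows share 126 bases. They are shown because the paired genes gave different values.
COL4A2 (chr13:110307034-110307283, + strand, 40 CG): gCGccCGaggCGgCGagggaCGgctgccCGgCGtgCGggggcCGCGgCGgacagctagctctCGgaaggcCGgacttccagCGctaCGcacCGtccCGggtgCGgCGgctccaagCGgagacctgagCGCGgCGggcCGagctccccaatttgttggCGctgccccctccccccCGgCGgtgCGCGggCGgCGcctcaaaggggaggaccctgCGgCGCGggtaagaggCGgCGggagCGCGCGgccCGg
COL4A1 (chr13:110307158-110307407, - strand, 38 CG): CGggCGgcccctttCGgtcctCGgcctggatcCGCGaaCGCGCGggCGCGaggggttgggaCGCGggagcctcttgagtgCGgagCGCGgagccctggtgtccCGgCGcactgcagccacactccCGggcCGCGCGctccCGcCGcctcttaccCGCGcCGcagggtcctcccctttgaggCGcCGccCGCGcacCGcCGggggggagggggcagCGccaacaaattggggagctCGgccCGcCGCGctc

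LAMC1, LAMA3 and ITGA6 are shown as members with lower signals in TR9-MeTA14.
LAMC1 (chr1:183023170-183023419, + strand, 32 CG): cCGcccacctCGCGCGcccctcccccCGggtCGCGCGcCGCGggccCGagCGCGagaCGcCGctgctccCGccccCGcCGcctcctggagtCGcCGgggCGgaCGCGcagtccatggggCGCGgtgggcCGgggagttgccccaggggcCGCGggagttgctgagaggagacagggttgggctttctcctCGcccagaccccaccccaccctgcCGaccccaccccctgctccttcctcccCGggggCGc
LAMA3 (chr18:23872770-23873019, + strand, 9 CG): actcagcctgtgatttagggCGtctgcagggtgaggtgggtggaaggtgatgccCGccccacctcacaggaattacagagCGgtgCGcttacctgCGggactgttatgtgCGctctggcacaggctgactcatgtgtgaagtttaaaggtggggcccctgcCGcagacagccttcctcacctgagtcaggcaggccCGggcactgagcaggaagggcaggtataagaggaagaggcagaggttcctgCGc
ITGA6 (chr2:172427086-172427335, + strand, 8 CG): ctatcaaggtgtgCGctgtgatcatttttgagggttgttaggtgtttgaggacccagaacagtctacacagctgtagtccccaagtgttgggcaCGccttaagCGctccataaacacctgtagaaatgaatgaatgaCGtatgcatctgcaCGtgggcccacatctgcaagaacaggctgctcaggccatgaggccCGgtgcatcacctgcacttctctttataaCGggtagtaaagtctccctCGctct

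Over the 15176 such windows of genes with a probe the median was 18 CG pairs, with quartiles of 7 and 26. Over all 27305 windows it was 11, with quartiles of 3 and 23, and 93.6% of these held at least 1 CG. The 8 windows shown, picked after the values were seen, held between 8 and 40, and no relation of CG to direction can be read from them. Windows were on hand for 57 of the 81 members. A comparison over the module or its groups is void at this coverage, and each window covers only the 1 start that the table lists for its gene.

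Signals are processed signals, the brightness of a spot after background subtraction. Fold changes were computed after dividing each array by its own 75th percentile, which was 1.26 times higher with tetracycline in TR9-MeTA14 and 1.48 times higher in TR15-MeTA5. A fold higher with tetracycline is therefore smaller than the plain ratio of the signals given, and a fold lower is larger. Between the lines the same scaling raises TR15-MeTA5 relative to TR9-MeTA14. A probe counted as measured where it was well above background, which required a signal of at least 13.9 to 19.2 depending on the array. Where only the brighter array passed, the fold is a lower bound. The differences have no replicate check within a line, and a change of 2-fold, the cut-off that the study's methods state, was the mark for calling a probe higher or lower.

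Of the 106 member probes, 58, 62, 55 and 57 were well above background in TR9-MeTA14 -Tet, TR9-MeTA14 +Tet, TR15-MeTA5 -Tet and TR15-MeTA5 +Tet. On all non-control probes these shares were 64.2%, 71%, 60.3% and 63.3%. No array measured 40 member probes, against 25.4% of all probes. By gene, 26 of the 81 members had no probe above background on any array, 17 collagens, 1 laminin (LAMA2) and 8 integrins. COL1A2 and COL3A1, chains of the fibrillar collagens of connective tissue, and ITGA1, ITGA2, ITGA4, ITGA8, ITGAD, ITGAL, ITGAX and ITGB3 were among them. For COL5A1, LAMA1 and LAMA4, among others, at least 1 probe was measured while another was not.

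The cells kept the markers of their label. All 8 prostate luminal markers, among them KLK3, KLK2, TMPRSS2, FOLH1, KRT8 and KRT18, were above background on all 4 arrays. Their summed scaled signal, in units of the 75th percentile of the array, was 466 without and 169 with tetracycline in TR9-MeTA14, and 617 and 391 in TR15-MeTA5. Of 8 fibroblast markers, PDGFRA, PDGFRB, FAP, DCN, LUM and POSTN were not above background on any array. The fibroblast sum was 0.150 and 0.129 in TR9-MeTA14, and 0.262 and 1.07 in TR15-MeTA5. The other fibroblast markers were ACTA2, with signals of 63.0, 32.4, 56.7 and 386 in the order given above, and THY1. THY1 was below background without tetracycline and read 34.0 and 140 with it, at least 1.75-fold and 6.16-fold higher (limma adjusted p = 0.0475). That p rests on signals below background, and the bound in TR9-MeTA14 does not reach 2-fold. Of the 6 endothelial and 6 leukocyte markers, CLDN5 and CD14 were among those that passed 2-fold higher in each line. The endothelial sum was 0.819 and 1.40, and 0.931 and 1.31, and the leukocyte sum was 11.2 and 6.99, and 5.46 and 7.49. CD79A made up most of the leukocyte sum, at 10.9 and 5.09, and 4.84 and 6.21. It was 2.13-fold lower in TR9-MeTA14 and 1.28-fold higher in TR15-MeTA5. Of the 6 leukocyte markers, 2 were 2-fold higher in both lines, and CD3E was at least 2.55-fold lower in TR15-MeTA5. Of the endothelial markers, VWF read 378, 359, 260 and 263 and CDH5 79.2, 92.2, 63.0 and 70.9, PECAM1 was above background only with tetracycline, in both lines, and KDR and TEK on no array. All 4 samples were cultured cells of LNCaP-derived lines and not tissue, so these markers are not read as a part of other cell types. Their source was not tested, and in bulk RNA fewer cells that express a gene and less RNA per cell cannot be told apart.

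With tetracycline, 18 of the 62 member probes that could be compared in TR9-MeTA14 were at least 2-fold higher, where 15.2% of all probes were, and 9 were at least 2-fold lower, where 15.1% were. In TR15-MeTA5, 16 of 58 were higher and 1 was lower, against 8.5% and 2.67% of all probes. In both lines alike, 14 of the 56 probes comparable in both were higher, against 7.01% of all probes, and none of the 56 was lower in both, against 0.891%. No member was 2-fold higher in one line and 2-fold lower in the other. The median log2 fold change of the measured members was 0.23 in TR9-MeTA14 and 0.04 in TR15-MeTA5, and over all measured probes it was -0.14 and -0.18. Higher probes made up 66.7% of the changed members in TR9-MeTA14, and 81.0% when background was corrected by normexp with quantile normalization. Scaling on spike-in probes moved every member in TR15-MeTA5 up by 0.36 on the log2 scale.

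**Figure D1:**
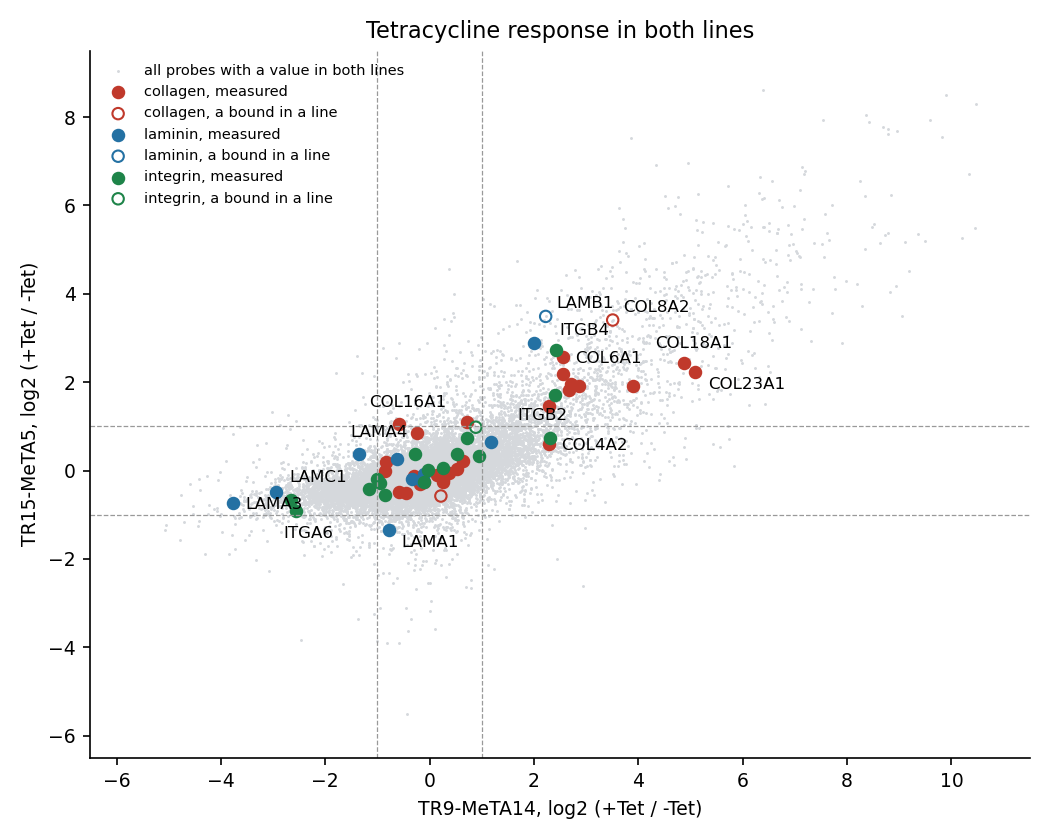
Log2 fold change with tetracycline in TR9-MeTA14 (horizontal axis) and TR15-MeTA5 (vertical axis) for each member probe, coloured by family, over all probes with a value in both lines in grey. Open circles have a lower bound in at least 1 line, dashed lines mark 2-fold, and 14 member probes lie in the upper right field with none in the lower left.

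By family, with no test between families, the calls are read against the shares of all probes given above. Among collagens, 12 of 30 probes compared were higher in TR9-MeTA14 and 12 of 29 in TR15-MeTA5, and none was lower in either line. Among laminins, 3 of 14 were higher and 5 lower in TR9-MeTA14, and 2 of 12 were higher and 1 lower in TR15-MeTA5. Among integrins, 3 of 18 were higher and 4 lower in TR9-MeTA14, near the shares of all probes, and 2 of 17 were higher and none lower in TR15-MeTA5. Higher in both lines were 10 collagen, 2 laminin and 2 integrin probes. These 14 probes belong to 11 genes, among them COL6A1, COL6A2, COL8A2, COL9A3, COL11A2, COL18A1, COL23A1, LAMB1, ITGB2 and ITGB4.

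Collagen VI forms beaded filaments from the chains of COL6A1, COL6A2 and a longer chain such as that of COL6A3. COL6A1 gave processed signals of 18556 and 136776 in TR9-MeTA14 without and with tetracycline, and of 3542 and 31071 in TR15-MeTA5. Both +Tet arrays lay above both -Tet arrays, and the fold changes were 5.86 and 5.93. For COL6A2, the neighbour of COL6A1 on chromosome 21, probe A_23_P310956 read 328 and 2714, and 89.1 and 512. This was 6.58-fold in TR9-MeTA14 and 3.88-fold in TR15-MeTA5. Its other probe, A_33_P3269539, gave 7.23-fold and 3.75-fold. COL6A3 stayed near the detection limit, with 32.4 in TR9-MeTA14 +Tet as its highest signal and at least 1.66-fold there, and had no fold in TR15-MeTA5. COL6A5 and COL6A6 were not above background on any array. The paired filament chains were thus higher together, while the partner chains were dim.

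COL18A1 encodes the basement membrane collagen whose C-terminal fragment is endostatin. It read 711 and 26360 in TR9-MeTA14, and 365 and 2934 in TR15-MeTA5. The lines began at nearly the same scaled level, 1.15 and 0.996 times the 75th percentile, and the fold changes were 29.5 and 5.43. COL23A1 encodes a membrane-anchored collagen. It read 29.0 and 1242 in TR9-MeTA14, and 150 and 1036 in TR15-MeTA5, or 34.0-fold and 4.68-fold. Here the lines differed before tetracycline, by 8.69-fold, and with tetracycline they differed by only 1.19-fold. The other membrane collagens on the array, COL13A1, COL17A1 and COL25A1, were not above background anywhere.

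COL8A2 encodes a short-chain collagen of basement membranes such as the one behind the cornea. Probe A_24_P365975 read 72.6 and 1039 in TR9-MeTA14, an 11.4-fold difference. In TR15-MeTA5 it was not above background without tetracycline, at 5.34, and reached 242, at least 10.6-fold higher. The other COL8A2 probe, A_33_P3297930, gave 14.9-fold and 3.76-fold. COL8A1, which encodes the usual partner chain, was not above background on any array.

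Collagen IX, which coats cartilage fibrils, is assembled from the chains of COL9A1, COL9A2 and COL9A3. COL9A3 read 1583 and 11744, and 942 and 6382, which was 5.89-fold and 4.58-fold. COL9A2 read 157 and 325, and 114 and 358, which was 1.65-fold in TR9-MeTA14 and 2.13-fold in TR15-MeTA5. COL9A1 read 46.4 and 64.8, and 37.1 and 51.2, and its log2 fold changes were 0.15 and -0.10. Only COL9A3 of the 3 chains passed 2-fold in both lines.

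COL11A2 encodes a chain of a fibrillar cartilage collagen, and its probes disagreed. Probe A_23_P42322 read 64.9 and 522, and 31.6 and 166, which was 6.40-fold and 3.55-fold, and A_33_P3216442 gave 4.91-fold and 2.77-fold. The brightest of the 3, A_33_P3216448, read 302 and 456, and 246 and 304, with log2 fold changes of 0.26 and -0.26. By the brightest probe alone COL11A2 was not among the genes higher in both lines, which then numbered 10, against 8.21% of all genes compared in this way. None of the members was lower in both lines by this rule, against 0.837%.

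**Figure D2:**
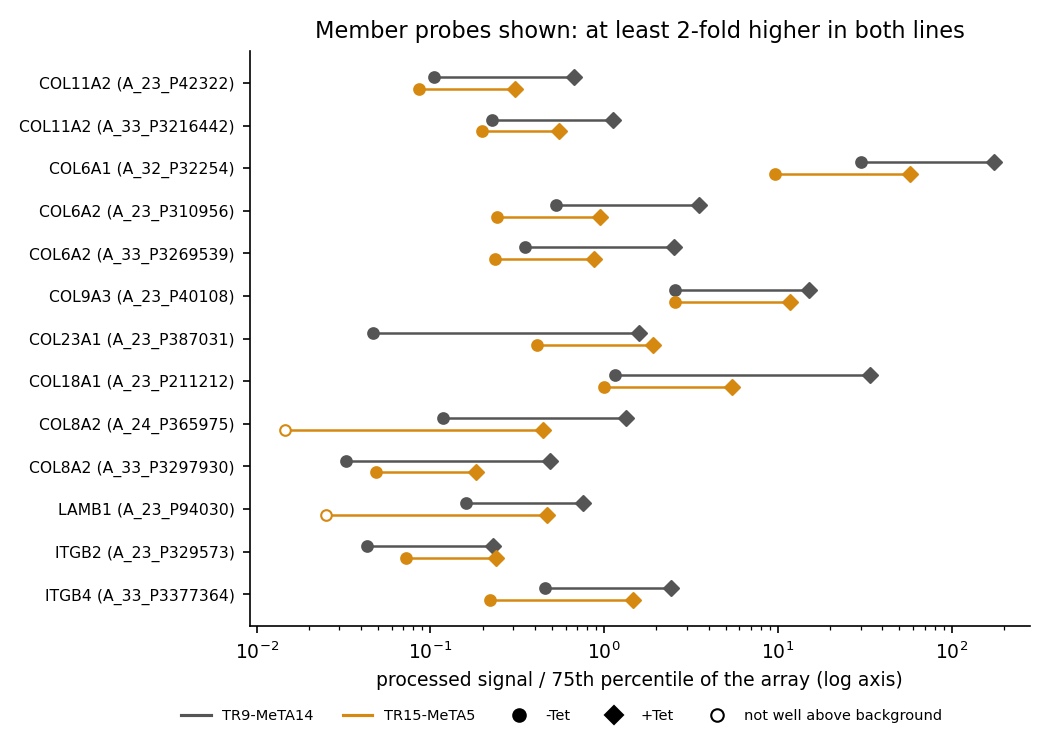
Processed signal divided by the 75th percentile of its array (log axis) for member probes of the genes named above that were higher with tetracycline by 2-fold or more in both lines, with circles for -Tet and diamonds for +Tet joined by line. COL8A2 (A_24_P365975) and LAMB1 start from open circles in TR15-MeTA5, where they were not well above background, and in every row shown the diamond lies to the right of its circle.

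Collagen IV is the network collagen of basement membranes. COL4A2 read 208 and 1280 in TR9-MeTA14, and 169 and 380 in TR15-MeTA5, which was 4.89-fold and 1.52-fold. COL4A1 sits next to it and supplies 2 chains of the same trimer for each COL4A2 chain. It read 29.8 and 43.6 in TR9-MeTA14, a log2 fold change of 0.22, and 22.3 in TR15-MeTA5 -Tet with no signal above background after tetracycline. The neighbours whose windows overlap, shown above, therefore gave a 2-fold call for COL4A2 in TR9-MeTA14 and none for COL4A1. COL4A5 and COL4A6, another adjoining pair, had log2 fold changes between -0.58 and -0.46 in both lines, and COL4A3 and COL4A4 were not measured above background.

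The remaining collagen calls, named after their values were seen, were each in 1 line or probe. COL5A2 read 54.1 and 439 in TR9-MeTA14, 6.44-fold, and was below background on both arrays of TR15-MeTA5. COL16A1 read 750 and 626 in TR9-MeTA14 and 68.8 and 212 in TR15-MeTA5 with probe A_23_P160318, for log2 fold changes of -0.59 and 1.06. Its other probe, A_33_P3210647, gave 0.26 and -0.22. COL1A1, the main fibrillar chain of connective tissue, read 475 and 505, and 36.4 and 97.6, with log2 fold changes of -0.24 and 0.86 that did not reach 2-fold. Among collagens there was no value of 2-fold lower.

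Laminin chains moved apart from each other within TR9-MeTA14. LAMB1, the most widely used beta chain, read 99.6 and 585 in TR9-MeTA14, 4.67-fold. In TR15-MeTA5 it was not above background without tetracycline, at 9.19, and read 256 with it, at least 11.2-fold higher. LAMB4, its neighbour on chromosome 7, read 34.7 in TR9-MeTA14 -Tet with probe A_23_P334328 and was not above background on the other arrays. By this probe it was at least 3.14-fold lower with tetracycline in that line. The other LAMB4 probe, A_33_P3338413, was above background on no array, so the call rests on 1 dim signal of 1 probe.

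LAMA3 and LAMB3 encode an alpha and a beta chain of epithelial laminin. LAMA3 read 1068 and 98.4 in TR9-MeTA14, 13.7-fold lower, and 1699 and 1505 in TR15-MeTA5, a log2 fold change of -0.74. LAMB3 read 31.9 and 26.2, and 82.6 and 146, with log2 fold changes of -0.62 and 0.26. Neither chain was 2-fold higher in a line.

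LAMC1, the gamma chain of most laminins, read 2436 and 401 in TR9-MeTA14, 7.65-fold lower. In TR15-MeTA5 it read 1554 and 1641, a log2 fold change of -0.49. LAMA5, the alpha chain of the common laminins of adult epithelium, read 848 and 2413, and 375 and 874, which was 2.26-fold and 1.58-fold. LAMB2 was bright on all arrays, from 11375 to 21218 with probe A_33_P3338116, and its log2 fold changes were -0.10 and -0.08.

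Of the other alpha chains, both named after their values were seen, LAMA4 read 279 and 137, and 54.4 and 105 with probe A_33_P3391596. Its log2 fold changes were -1.36 and 0.38. LAMA1 read 33.9 and 24.8, and 86.9 and 50.7, for -0.78 and -1.34, and was the only member at least 2-fold lower in TR15-MeTA5. Under spike-in scaling (-0.98) and normexp (-0.84) it no longer passed 2-fold.

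**Figure D3:**
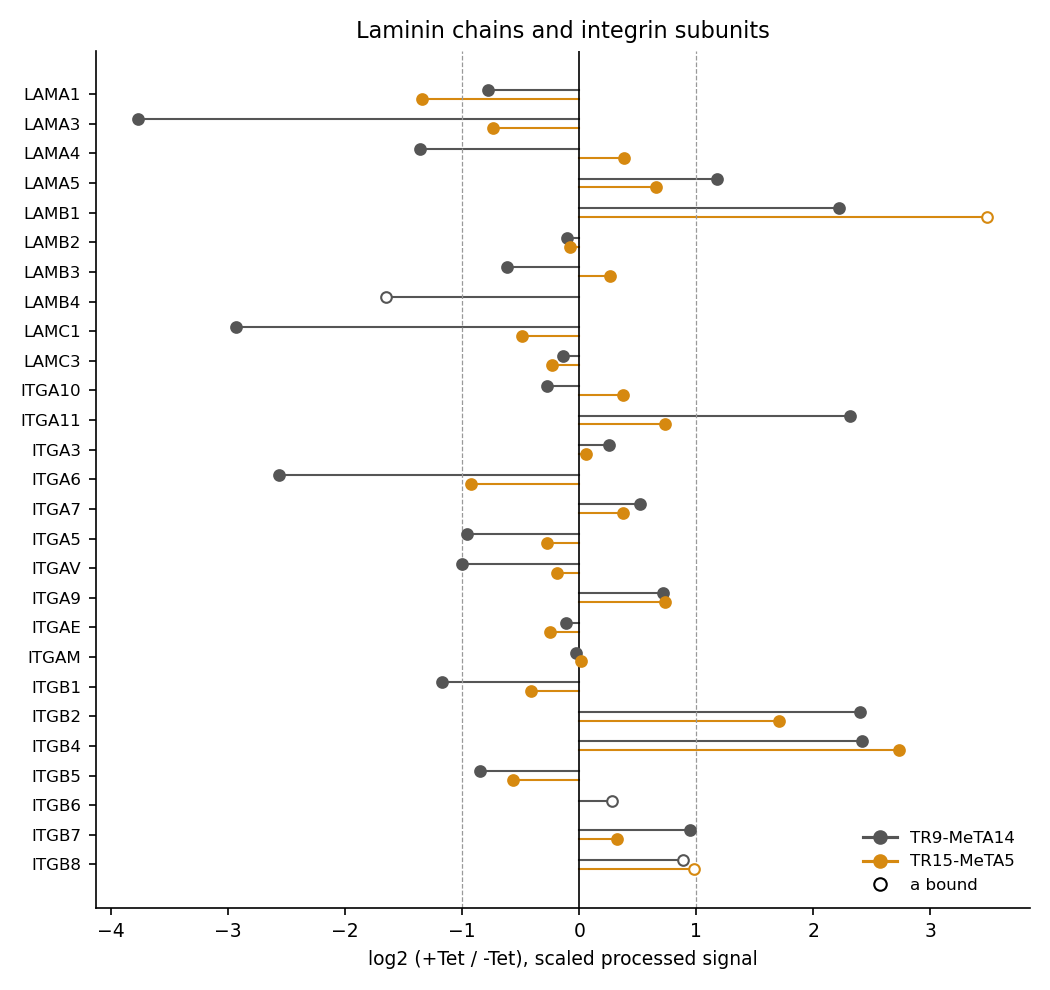
Log2 fold change with tetracycline for the brightest probe of each laminin chain and integrin subunit reported here that had a value, grey for TR9-MeTA14 and orange for TR15-MeTA5, with open circles for lower bounds and dashed lines at 2-fold. LAMA3, LAMC1 and ITGA6 reach furthest to the left in TR9-MeTA14, and LAMB1 and ITGB4 lie beyond 2-fold higher in both lines.

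Among integrins, ITGB4, the beta subunit that links laminin to keratin filaments, read 280 and 1880 in TR9-MeTA14 and 81.1 and 800 in TR15-MeTA5. Both +Tet arrays lay above both -Tet arrays, with fold changes of 5.33 and 6.67. ITGB4 pairs with ITGA6 alone. ITGA6 read 859 and 182, and 222 and 173 with probe A_23_P210176, which was 5.93-fold lower in TR9-MeTA14 and 1.89-fold lower in TR15-MeTA5. Its other probe, A_33_P3231447, gave 6.30-fold and 1.57-fold lower. The subunits of this receptor thus differed in sign in both lines, though ITGA6 passed 2-fold only in TR9-MeTA14.

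ITGB2 is the beta subunit of the leukocyte integrins. Each array carried 10 spots for it. It read 26.8 and 178, and 26.6 and 129, which was 5.28-fold and 3.27-fold. Of its alpha partners, ITGAL, ITGAX and ITGAD were not above background on any array. ITGAM was just above it on all 4, between 16.6 and 31.5, with log2 fold changes of -0.03 and 0.02. The leukocyte markers given above include CD14 with higher signals in both lines, CD79A lower in TR9-MeTA14 and CD3E lower in TR15-MeTA5. PTPRC had log2 fold changes of 0.24 and -0.62. A link of these markers with the value of ITGB2 was not tested. Correction by normexp left ITGB2 short of 2-fold in both lines, at 0.96 and 0.80 on the log2 scale.

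Of the subunits used by many cell types, ITGB1 and ITGAV were called lower in TR9-MeTA14. ITGB1, the shared partner of most alpha subunits, read 329 and 184 over 10 spots per array, and 233 and 260 in TR15-MeTA5. The fold was 2.25 lower in TR9-MeTA14 and 1.33 lower in TR15-MeTA5. ITGAV read 1439 and 903, and 764 and 991, and lay just inside the mark of 2-fold lower in TR9-MeTA14, with a log2 fold change of -0.19 in TR15-MeTA5. Its call was lost under median scaling (-0.94), spike-in scaling (-0.89) and normexp (-0.96), and that of ITGB1 under normexp (-0.90). ITGA5, the fibronectin receptor subunit, lay just outside it at -0.96, and its TR15-MeTA5 value was -0.28. ITGB5, a partner of ITGAV, gave -0.85 and -0.56. ITGA3, a laminin-binding subunit, gave 0.25 and 0.06. ITGB6 was above background in TR9-MeTA14 +Tet alone, at 23.7, and was at least 1.22-fold higher there.

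ITGA11, a collagen-binding subunit of mesenchymal cells that was named after its values were seen, read 41.4 and 259, and 39.2 and 96.4, which was 4.98-fold and 1.66-fold. The other collagen-binding subunits were ITGA10, with -0.28 and 0.38 on the log2 scale, and ITGA1 and ITGA2, which were not measured above background. ITGB7 lay just short of 2-fold higher in TR9-MeTA14 at 0.95, and ITGB8 just short in TR15-MeTA5 with a bound of 0.98.

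With the lines taken as replicates of the treatment, limma was fitted to all 22820 probes above background on at least 2 arrays. Of the 59 member probes tested, 4 were higher and none was lower at an adjusted p under 0.05, against 2.6% and 0.0131% of all probes. These 4 were ITGB4 (log2 fold change 2.58 ± 0.26 SE, adjusted p = 0.0302), COL6A1 (2.56 ± 0.27, adjusted p = 0.0314), COL8A2 A_24_P365975 (adjusted p = 0.0315) and COL9A3 (2.38 ± 0.26, adjusted p = 0.0348). For COL8A2, the adjusted p and the fitted size, which is not given, rest on a signal below background. The other COL8A2 probe, A_33_P3297930, was above background on all 4 arrays and had an adjusted p of 0.106 in limma. With limma limited to probes above background on all 4 arrays, COL8A2 was not called and the other 3 genes were. In each of the 4, the signal was higher with tetracycline in 2 of 2 lines. This is likely for any probe picked by limma over these same lines and adds no support. COL18A1 and COL23A1, with the largest fold changes in TR9-MeTA14, had adjusted p of 0.0832 and 0.114 in limma, and their values in the lines lay further apart. LAMB1 had 0.0826. At an unadjusted p under 0.05 by limma, 20 member probes were higher and 5 lower, against 11.5% and 8% of all probes. The fit left 1 residual degree of freedom, so its p-values rest largely on the spread borrowed from other probes. A difference between the lines in their response could not be tested, as no residual degree of freedom remains for it.

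The untreated lines differed in this module before any tetracycline was given. Of 60 member probes compared, 9 were higher by 2-fold or more in TR15-MeTA5 than in TR9-MeTA14 and 11 were lower by as much, against 8.44% and 5.49% of all probes. Scaling on spike-in probes turned this into 5 higher and 27 lower. No share of all probes was computed under that scaling, so nothing is read from these counts about the module. COL23A1 was 8.69-fold higher in TR15-MeTA5, LAMC3 4.52-fold (A_23_P82979), LAMB3 4.36-fold, LAMA1 4.32-fold and LAMA3 2.68-fold. COL1A1 was 7.74-fold lower there and COL16A1 6.48-fold lower (A_23_P160318). COL6A1 was 3.11-fold, LAMA4 3.05-fold (A_33_P3391596), ITGA6 2.30-fold and ITGB4 2.05-fold lower, and LAMB1 at least 3.83-fold lower. ITGB1, ITGAV and ITGA3 differed by 1.19-fold or less. Of the 5 laminin probes higher in untreated TR15-MeTA5, none was higher with tetracycline by 2-fold in either line. Of all probes, 15.2% in TR9-MeTA14 and 8.5% in TR15-MeTA5 were, so nothing is read from so few. LAMC3 A_33_P3277527, 1 of the 5, had no fold in TR9-MeTA14.

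**Figure D4:**
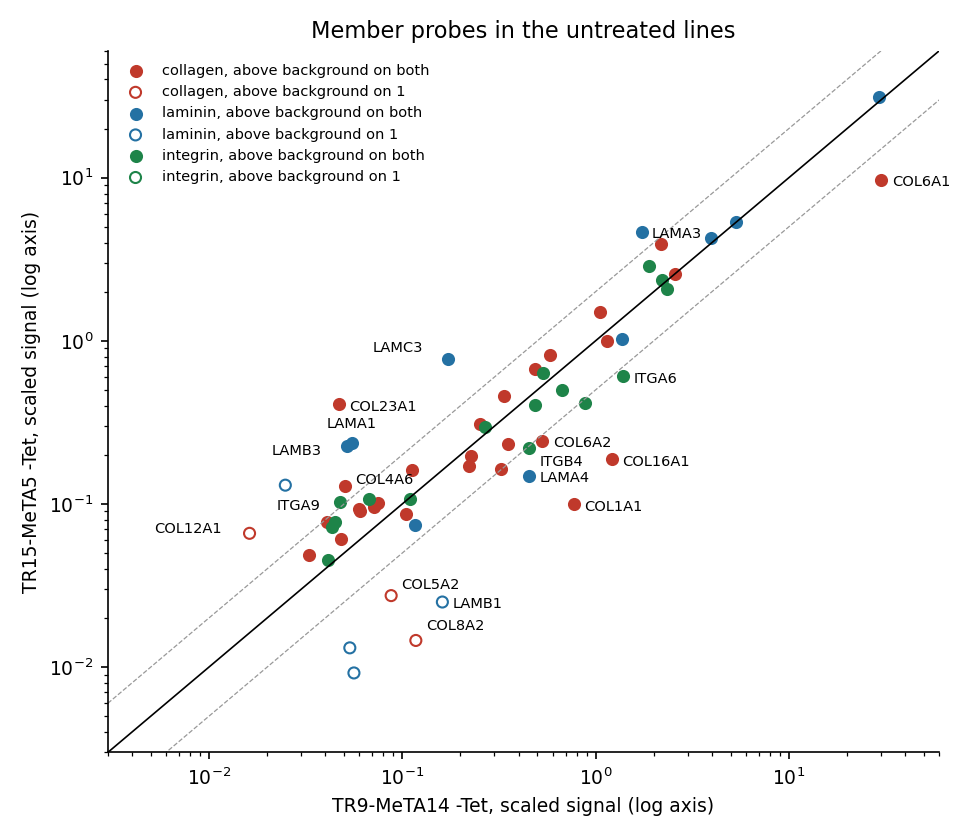
Scaled signal of each member probe in untreated TR9-MeTA14 (horizontal, log axis) and untreated TR15-MeTA5 (vertical, log axis), with open circles where only 1 of these arrays was well above background. The solid line marks equal values and the dashed lines 2-fold, with COL23A1 furthest above and COL1A1 furthest below among the filled circles.

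With tetracycline in both lines, 60 member probes could be compared between them. TR15-MeTA5 +Tet was higher by 2-fold or more for 11 and lower for 13, against 14.3% and 10.1% of all probes. LAMA3 was 21.9-fold, LAMB3 8.01-fold, LAMC1 5.86-fold and ITGB1 2.02-fold higher in TR15-MeTA5 +Tet than in TR9-MeTA14 +Tet. COL18A1 was 6.27-fold, COL6A1 3.07-fold and COL4A2 2.35-fold lower there, and COL5A2 at least 13.5-fold lower. Of the laminin probes, 6 of 12 were higher in TR15-MeTA5 and none was lower, and of the collagen probes, 2 of 31 were higher and 12 lower.

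Other genes of the pathway were taken from lists, each gene by its brightest probe, and the counts of all lists stand beside 8.21% of all genes higher and 0.837% lower in both lines. Of 27 genes of collagen processing, 19 could be compared in both lines, and 4 passed 2-fold higher in each (COLGALT2, PCOLCE, LOXL1 and LOXL2) and 1, P4HA1, was lower in both. LOXL2, which cross-links collagen, read 33.0 and 841, and 14.5 and 535, which was 20.2-fold and at least 23.5-fold. Of 15 other matrix glycoproteins, 10 could be compared and 4 were higher in both lines, FBLN1, FBLN2, NPNT and EGFLAM. EGFLAM, which encodes pikachurin, a ligand of dystroglycan, was not above background without tetracycline and read 581 and 158 with it, at least 29.8-fold and 6.92-fold higher. None of 12 compared genes among the other receptors for collagen and laminin was 2-fold changed in both lines.

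Of 25 genes of integrin adaptors, which act at the tails directly or through other proteins, 22 could be compared in both lines and 3 were higher in both. LIMS2, a partner of integrin-linked kinase, read 56.2 and 10225, and 45.2 and 3474, or 144-fold and 51.9-fold. FERMT3, the kindlin of blood cells, read 28.1 and 394, and 12.1 and 134, or 11.1-fold and at least 5.89-fold. TGFB1I1 gave 5.62-fold and 4.22-fold. FERMT1, the kindlin of epithelia, named after its values were seen, read 300.1 and 13.0 in TR9-MeTA14, at least 27.1-fold lower, and 323 and 324 in TR15-MeTA5, a log2 fold change of -0.56. Among 17 matrix proteases and their inhibitors, 8 could be compared, and TIMP1 and PLAU were higher in both lines. TIMP1 was not above background without tetracycline and read 215 and 525 with it, at least 11.0-fold and 23.0-fold higher. By limma, 1 of 20, 1 of 11, none of 13, 3 of 23 and 1 of 10 genes tested were higher at an adjusted p under 0.05. These are the 5 lists in the order given, and none was lower. Of all probes tested, 2.6% were higher and 0.0131% lower. The calls of LOXL2, EGFLAM, FERMT3 and TIMP1 rest on signals below background without tetracycline in at least 1 line. Those of LIMS2 and TGFB1I1 do not.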

How the data were processed

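RNA of 4 cultures was labeled with Cy3 and hybridized to Agilent arrays, all on 1 slide. The authors deposited the intensity of every spot as background-subtracted processed signal, not normalized between arrays. The file headers name Feature Extraction 10.7.3.1 and the submitters' processing notes 9.5.1. A deposited table of the series held identical signals. Here, log2 signals were averaged per probe once outlier spots (255 to 344 on an array) were removed. Each array was then scaled by the 75th percentile of its non-control probes. A fold change with a dim array is bounded by the lowest signal well above background on that array. Probes with 10 spots, all well above background, gave a technical SD of 0.0862 for a log2 ratio, which leaves out the spread between cultures. Single spots of the dim ITGAM had a log2 SD from 0.27 to 0.43, so the technical SD understates the spread of dim probes. Precision is limited by the number of arrays.

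RefSeq accessions gave probes their names (74.5% matched, table on GRCh38.p14, used for names and neighbours). The design was annotated on hg19. Members, lists and tests were chosen with earlier results of these data known. Genes named by rule are members 2-fold changed in both lines or past limma's threshold, and pathway genes 4-fold changed in both lines. A fixed set of basement membrane chains and epithelial integrins was also named by rule. Other members and pathway genes were named after their values were seen, whether or not this is said where they stand. A few genes are counted but not reported by name here.

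The limma fit (3.58.1, in R 4.3.3) blocked on cell line and let the spread follow intensity, and p-values were adjusted by Benjamini-Hochberg across 22820 probes. A simulation of the same comparison held 22810 probes, of which 200 were changed, 100 by 4-fold and 100 by 16-fold. At the adjusted threshold limma found 0% of the changed probes of either size and called 0 unchanged probes. At an unadjusted p under 0.05 by limma, 94% of the smaller and 100% of the larger changes were found. In the measured data 596 of 22820 probes passed the adjusted threshold. The adjustment depends on how many probes change, so the simulation does not show what share of real changes was missed. Alternatives were quantile, median and spike-in scaling, normexp (offset 50, from median pixel intensities) with quantile normalization, the series table, all spots, other filters and cut-offs, no block and no trend. Python 3.11.15, numpy 2.4.6, pandas 2.3.3 and matplotlib 3.10.9 were used.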

Additional observations from a re-analysis of the deposited data

Results flagged for a closer look

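Probes of COL16A1 and LAMA4 moved in opposite directions in the lines, with at least 2-fold in one of them. For COL16A1 (A_23_P160318), the log2 fold change with tetracycline was -0.59 in TR9-MeTA14 and 1.06 in TR15-MeTA5, a difference of 1.65. For LAMA4 (A_33_P3391596), it was -1.36 and 0.38, a difference of 1.74. With 1 array per condition the difference was not tested. The 2-fold call of COL16A1 was lost under quantile normalization (0.98) and normexp (0.75), and that of LAMA4 under normexp (-0.91, with 0.07 in TR15-MeTA5). Over the scalings run, the difference lay between 1.26 and 1.90 for COL16A1 and between 0.98 and 1.99 for LAMA4. The other COL16A1 probe gave 0.26 and -0.22, and the other LAMA4 probe with a value gave a bound in TR9-MeTA14 alone, at -1.58.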

How the results depend on the processing

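The 11 genes higher in both lines were the same under quantile normalization, median scaling, the series table (identical values), all spots kept and a 3-fold cut-off. Normexp lost ITGB2, a filter on all 4 arrays lost LAMB1, spike-in scaling added ITGA11 and LAMA5, no filter added COL2A1 and ITGB8, and 1.5-fold gave 17 genes. Other counts of members moved more, and the cause was not tested. Quantile normalization gave 2 probes lower in TR15-MeTA5 and 1 lower in both lines. Spike-in scaling gave 0 lower in TR15-MeTA5, 5 higher and 27 lower between the untreated lines, and 15 higher by limma. Normexp gave 4 lower in TR9-MeTA14, 0 lower in TR15-MeTA5, and 5 higher and 6 lower between the untreated lines. Without a filter, 28 were higher in TR9-MeTA14, 4 lower in TR15-MeTA5, 19 higher between the untreated lines and 14 higher by limma. Over all probes, limma called 1232 of 22820 under spike-in scaling and 1326 of 34127 without a filter, against 596 of 22820 before these changes. Shares of all probes were not computed for the counts of fold calls under these settings, so nothing is read from them about the module. A 3-fold cut-off gave 5 lower in TR9-MeTA14, 0 lower in TR15-MeTA5, and 5 higher and 5 lower between the untreated lines. A 1.5-fold cut-off gave 16 lower in TR9-MeTA14, 4 lower in TR15-MeTA5, 4 lower in both, 16 higher between the untreated lines and 16 genes higher in both by their brightest probe. Without the block for cell line, limma called 548 of all 22820 probes. Among these were 2 member probes, of which COL9A3 was also called with the block. Of 57 single log2 fold changes, normexp moved 47 beyond the technical SD, by -1.96 to 1.17, quantile normalization moved 23, by -0.30 to 0.68, and spike-in scaling all 57, by 0.11 to 0.36, and none changed sign when called. For the dim probes among them the technical SD is too narrow a mark. Normexp also left short of 2-fold COL9A2 (0.85) and 1 probe each of COL11A2 (A_23_P42322, 0.93) and COL8A2 (A_33_P3297930, 0.76) in TR15-MeTA5, and in TR9-MeTA14 LAMB4 (-0.49) and LAMA4 A_33_P3308749 (-0.44). COL6A1 in TR9-MeTA14 was 3.23 under quantile normalization, and under normexp COL23A1 there was 3.26 and LAMA3 -2.98. No pairing by replicate number was possible because each condition has only replicate 1 in the labels. No block on replicate number could therefore be fitted and no replicate left out. The block on cell line in limma pairs the arrays of a line. Signals near background limit the dim members, for which only bounds or no folds were had.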

Other observations

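FN1, which encodes fibronectin and is no member, read 47.1 in TR9-MeTA14 -Tet and was not above background with tetracycline, at least 4.26-fold lower. In TR15-MeTA5 it read 272 and 258, and its level was 9.73-fold higher in untreated TR15-MeTA5 than in untreated TR9-MeTA14. ITGA2B, the platelet integrin subunit that the naming rule leaves out, gave log2 fold changes of -0.80 and 0.17.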
